A study of Mus musculus with 44 samples.

Results

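Transcripts of 35 genes that carry glucose to pyruvate and lactate, admit pyruvate to the mitochondrion and answer to low oxygen were followed in mouse ovarian follicles exposed to PFNA, a long-chain perfluorinated carboxylic acid with the full name perfluorononanoic acid. The genes were chosen by function, by symbol, and all 35 have a row in both gene tables, among 22674 genes of the maturation table and 18274 of the ovulation table. Wild-type follicles of CD-1 mice, an outbred strain, were sampled in the window of gonadotropin-dependent maturation, where 11 controls had received DMSO, the solvent, and 10 samples PFNA. Ovulation was induced in the other window with hCG (human chorionic gonadotropin), which 12 controls received alone and 11 samples received together with PFNA. The labels give no dose, exposure time, date or animal age, and nothing says that samples of a group came from separate animals, so the p-values measure the spread between these samples, which may in part be technical.

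Granulosa cells, the somatic cells that surround the oocyte, take up glucose through facilitative transporters and break it down by glycolysis. The oocyte itself uses glucose poorly and is fed pyruvate and lactate by the granulosa and cumulus cells. Lactate dehydrogenase interconverts pyruvate and lactate, monocarboxylate transporters move both across membranes, and the pyruvate dehydrogenase complex, held back by its kinases, turns pyruvate into acetyl-CoA for the tricarboxylic acid cycle. The hypoxia-inducible factor HIF-1 binds DNA at short motifs with the core CGTG and raises transcription of many glycolytic genes. In the presence of oxygen, prolyl hydroxylases of the EGLN family mark its alpha subunit for degradation, and in granulosa cells gonadotropins also raise that subunit.

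To show what DNA lies before the start of members that lead the results, the bases upstream of a RefSeq start on GRCm38.p6 are given 5′ to 3′ for hexokinase 2, for both lactate dehydrogenase genes and for both monocarboxylate transporters. Every match to ACGTG or GCGTG, the forms of the HIF core motif searched on both strands, is in capitals, so a match on the opposite strand reads CACGT or CACGC. The Hk2 stretch is chr6:82774455-82774704 on the minus strand. That of Ldha, the first of its 2 starts in the table, is chr7:46845554-46845803 on the plus strand, inside the longer gene model of GENCODE. The remaining stretches are chr6:142507958-142508207 on the minus strand (Ldhb), chr11:120948817-120949052 on the plus strand (Slc16a3, with the last 14 bases left off because they are annotated as exon) and chr3:104638414-104638663 on the plus strand (Slc16a1). The Slc16a3 stretch also lies inside the longer gene model of GENCODE, which starts at 120948480.
Hk2: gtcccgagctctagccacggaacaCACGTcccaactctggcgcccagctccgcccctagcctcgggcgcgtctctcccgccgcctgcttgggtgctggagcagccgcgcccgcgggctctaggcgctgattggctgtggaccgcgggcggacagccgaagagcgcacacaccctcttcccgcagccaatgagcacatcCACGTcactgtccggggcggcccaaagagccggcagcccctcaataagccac
Ldha: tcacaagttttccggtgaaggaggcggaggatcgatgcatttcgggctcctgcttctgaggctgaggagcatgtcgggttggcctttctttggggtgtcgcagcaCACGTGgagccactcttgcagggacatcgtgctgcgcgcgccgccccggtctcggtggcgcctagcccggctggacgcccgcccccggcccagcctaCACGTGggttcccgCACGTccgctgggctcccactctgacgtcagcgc
Ldhb: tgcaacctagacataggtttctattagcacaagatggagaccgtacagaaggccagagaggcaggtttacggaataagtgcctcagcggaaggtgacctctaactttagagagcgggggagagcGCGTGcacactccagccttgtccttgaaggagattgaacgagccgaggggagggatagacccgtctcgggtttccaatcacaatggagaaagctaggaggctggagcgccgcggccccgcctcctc
Slc16a3: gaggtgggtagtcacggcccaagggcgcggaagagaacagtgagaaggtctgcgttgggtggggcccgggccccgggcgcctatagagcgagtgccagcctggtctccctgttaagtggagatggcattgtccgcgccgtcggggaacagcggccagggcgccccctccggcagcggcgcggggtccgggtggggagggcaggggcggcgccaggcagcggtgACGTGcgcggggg
Slc16a1: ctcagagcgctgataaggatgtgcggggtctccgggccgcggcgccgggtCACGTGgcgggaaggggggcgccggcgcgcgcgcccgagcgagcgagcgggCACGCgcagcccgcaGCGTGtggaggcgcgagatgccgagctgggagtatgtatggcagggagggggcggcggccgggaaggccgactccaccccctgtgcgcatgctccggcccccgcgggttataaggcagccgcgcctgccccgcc

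The Ldha stretch holds 5 matches to ACGTG, of which 4 lie in 2 copies of the palindrome CACGTG, a motif that other factors of the E-box kind also bind. Ldhb has no match to ACGTG and 1 to GCGTG. Slc16a1 has 2 of each, with 1 CACGTG. Of 48 upstream windows of 250 bases for 34 members (Slc2a3 was not matched), 47.9% held ACGTG, 52.1% GCGTG, 14.6% CACGTG and 77.1% either core. Over all 32851 windows of that length the shares were 16.6%, 28.2%, 6.02% and 38.6%, and over the windows of genes tested in the maturation window 21.8%, 45%, 8.42% and 56.2%. ACGTG was found in 50% of the windows of members called lower in the maturation window and in 50% of those of members not called there, and in 25% of the 4 windows of members called higher. By the calls of the ovulation window it was found in 62.5% of 16 windows of members called lower, 39.1% of 23 of members called higher and 44.4% of 9 of those not called. These matches describe letters and are not evidence of binding.

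Some libraries stood apart from their group. In a principal component analysis of the maturation window, PFNA replicates 1 and 2 had scores of -13.7 and -6.17 on the first component (28.4% of the variance), near the controls at -28.9 to -10.1, while the other PFNA libraries lay between 21.7 and 38.2. The first component of the ovulation window (72.4%) parted all controls from all PFNA libraries. Total counts in the ovulation window were 11961105 to 16045751 in controls and 10600931 to 19511531 with PFNA, and the depth behind the maturation values is unknown. All 10 granulosa markers were present at a mean of at least 1 TPM or CPM in each group, and their sum had a median of 49930 TPM in maturation controls and 34314 TPM with PFNA, against 20175 and 20963 CPM in the ovulation window. The summed level of 24 oocyte markers was 283 to 463 TPM in maturation controls and 13.1 to 695.9 TPM with PFNA (median 26.2), with PFNA replicates 1, 2 and 10 at 277, 212 and 696 TPM. In the ovulation window it was 151 to 543 CPM in controls and 35.2 to 751 CPM with PFNA, with medians of 188 and 452 CPM and replicate 5 the lowest. All 20 oocyte markers tested during maturation were lower with PFNA, and 15 of 22 tested during ovulation were higher and none lower. The median sum of 11 theca and stroma markers was 607 and 803 TPM in the maturation window, and 1441 and 1738 CPM in the ovulation window, for controls and PFNA. Of these 11 markers 1 was called higher and 0 lower during maturation, and 8 were higher and 1, Pdgfra, lower during ovulation. Endothelial and immune markers had median sums of 72.1 and 53.7 TPM in maturation controls against 74.4 and 84.5 TPM with PFNA, and of 102 and 28.4 CPM against 155 and 65.6 CPM in the ovulation window. Among them Cd52 was under 0.1 TPM on average in both maturation groups and Ptprc in the controls. During maturation 0 of 5 endothelial and 2 of 4 immune markers tested were higher, and during ovulation 6 of 7 and 3 of 7, with 0 lower. Beside these marker counts, 13.3% of all genes tested were higher and 16.1% lower during maturation, and 38% and 35.2% during ovulation. Erythrocyte markers (1 and 2 of 6 analysed) and surface epithelium markers (5 of 6) had median sums of 0.0203 to 2.40 in the groups, and the highest sums were 11.1 CPM and 58.2 TPM, in PFNA libraries. In such bulk samples fewer cells of a type and less RNA per cell cannot be told apart, and the part of cell makeup in the results that follow was not tested beyond the fits with the oocyte markers as a covariate given beside them. In the maturation window all PFNA libraries but replicate 10 lay below every control in this covariate, which is thus largely tied to the group. A call lost with it there can come from a larger SE, and whether oocyte content accounts for it was not tested.

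With PFNA during maturation, most of the pathway was lower. Of the 34 members tested (Slc2a3 stayed under the minimum mean of 1 TPM), 21 were lower, 3 were higher and 10 did not pass the test (limma, Benjamini-Hochberg adjusted p under 0.05 over all genes). Among all 13712 genes tested 29.4% were called, 16.1% lower and 13.3% higher. The median log2 fold change was -0.54 over the members and 0.02 over all genes tested. All 10 PFNA libraries lay beyond all 11 controls for 2 members, Tpi1 and Pgam1, where 1.28% of all genes did so. The summed TPM of the 35 transcripts was 0.983 ± 0.0944% of each control library and 0.602 ± 0.190% of each PFNA library (SD, n = 11 and 10). The called losses ran along the whole route, with 7 of 9 genes from hexokinase to aldolase, 6 of 7 from triose phosphate to pyruvate and 3 of 4 of lactate dehydrogenase and lactate transport lower, and none of these groups held a higher call. With the oocyte marker share as a covariate 17 members were called lower and 0 higher, and without PFNA replicates 1 and 2 the counts were 22 and 3. Over all genes 1102 and 5201 were called in those fits, against 4030 in the main fit, so the member counts are not read alone.

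With PFNA during hCG-induced ovulation the same genes split evenly. Of 35 members tested 14 were higher, 14 lower and 7 did not pass (edgeR quasi-likelihood test, adjusted p under 0.05). In this window 73.2% of all 13441 genes tested were called, 38% higher and 35.2% lower, so that a call alone says little about these genes. The median log2 fold change was -0.10 over the members and 0.04 over all genes tested. For 5 members, namely Hk2, Pfkm, Pfkfb3, Pgam1 and Slc16a1, all 11 PFNA libraries lay beyond all 12 controls, where 26% of all genes did so. Changes of at least 2-fold were called for 6 lower members (Slc2a1, Hk2, Pgam1, Slc16a3, Egln3 and Ankrd37) and 2 higher ones (Pfkm and Aldoc). The share of all genes with such changes was not computed, so whether these counts are particular to the members was not tested. The sum of the 35 members was 0.985 ± 0.153% of each control library's normalised counts and 0.955 ± 0.181% of each PFNA library's (SD, n = 12 and 11). The PFNA mean thus lay within the spread of the controls, while the highest PFNA library, at 1.39%, exceeded the highest control, at 1.24%. Genes with high counts weigh most in this sum. CPM here are counts scaled to a common library total after TMM normalisation, and because counts are not divided by transcript length, levels of different genes are not compared in this window.

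**Figure D1:**
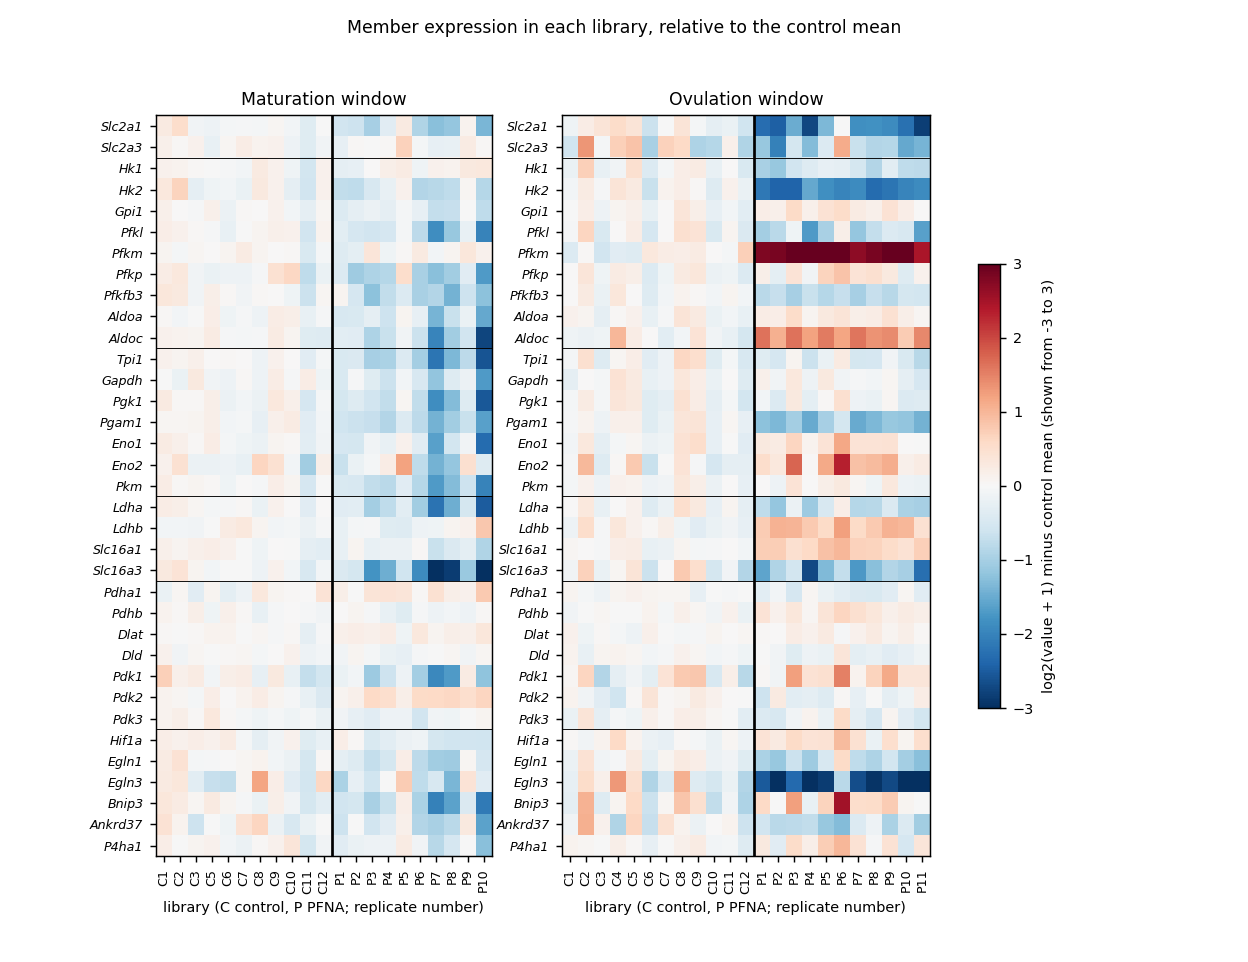
Each cell is the log2(value + 1) of a gene in a library minus the mean of the controls of that window, from TPM (left) and TMM-normalised CPM (right), with genes grouped by role and the vertical line parting controls (C) from PFNA (P). Most rows of the left panel are blue under PFNA, deepest in PFNA replicates 7 and 10, and the right panel holds blue rows (Slc2a1, Hk2, Pgam1, Slc16a3, Egln3) beside red ones (Pfkm, Aldoc, Ldhb, Slc16a1).

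**Figure D2:**
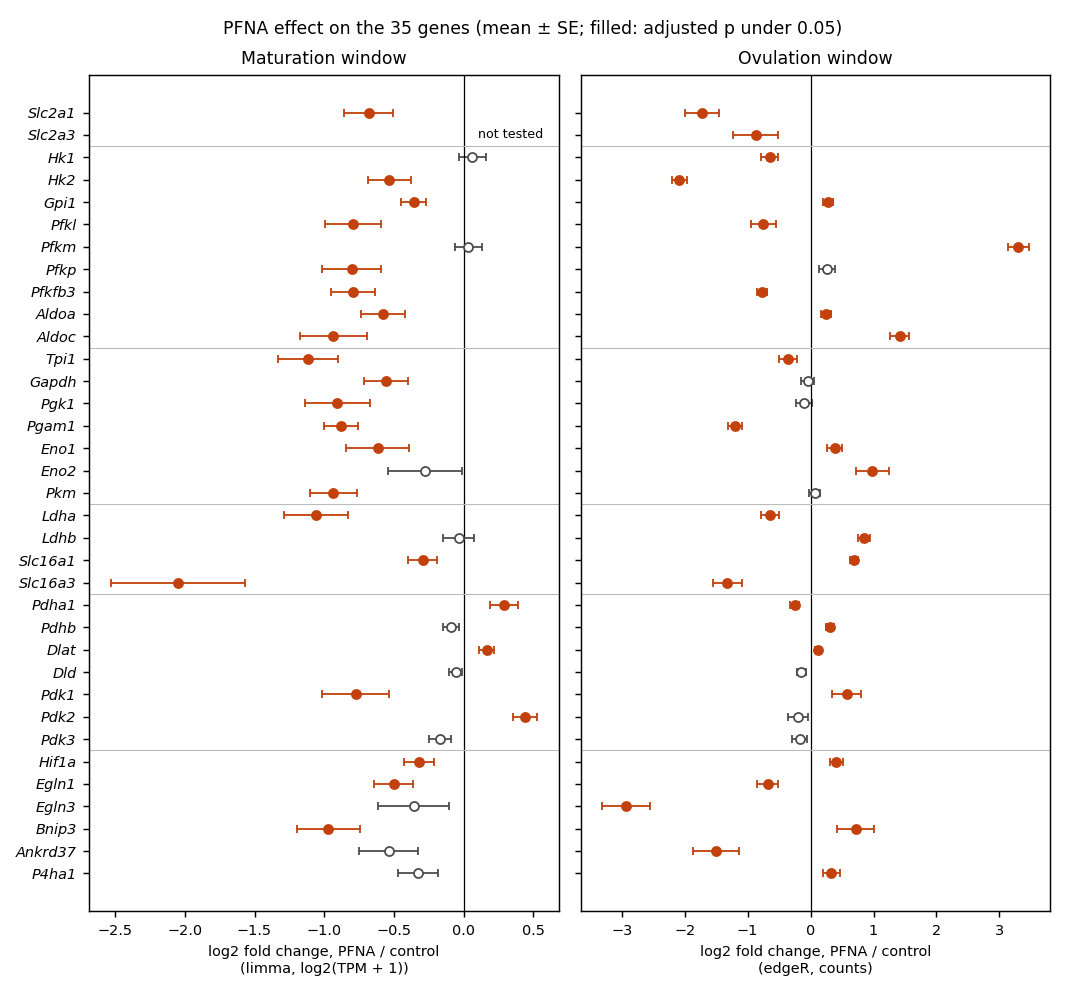
Points are log2 fold changes of PFNA over control with SE for each gene in the maturation window (left, limma on log2(TPM + 1)) and the ovulation window (right, edgeR on counts), filled where the adjusted p was under 0.05. On the left 21 filled points lie below 0 and 3 above, and on the right 14 lie on each side.

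Of the glucose transporter transcripts, Slc2a1 was lower with PFNA in both windows, and Slc2a3, not tested in the maturation window, was lower in the ovulation window. Slc2a1 (chromosome 4, 119108711 to 119137983, plus strand) encodes GLUT1, the basal glucose transporter of many cells. Slc2a1 lay between 22.9 and 43.2 TPM in controls (median 28.3) and between 10.8 and 35.9 TPM with PFNA (median 17.1) in the maturation window. PFNA replicates 4, 5 and 9 were within the control range and 7 of 10 PFNA libraries lay below every control. Mean Slc2a1 fell from 29.9 ± 5.37 to 19.4 ± 8.58 TPM (SD, n = 11 and 10), a log2 fold change of -0.68 (SE 0.18, adjusted p = 0.0059). Under hCG, Slc2a1 lay between 258 and 589 CPM in controls (median 393) and between 55.7 and 400.2 CPM with PFNA (median 107). All PFNA libraries but replicate 6, which held 400.2 CPM, were below every control. Mean Slc2a1 fell there from 416 ± 109 to 126 ± 96.4 CPM (SD, n = 12 and 11), a log2 fold change of -1.72 (SE 0.27, adjusted p = 3.8e-06). The transcript of Slc2a3, the high-affinity transporter GLUT3, was scarce in the maturation window, with 0.173 to 0.75 TPM in controls and 0.255 to 1.42 TPM with PFNA. Its ovulation level was lower with PFNA (-0.87 on the log2 scale, adjusted p = 0.031), and that call was lost without PFNA replicate 2, 10 or 11 or without control replicate 2 (log2 fold change -0.81 to -0.71).

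Hexokinase traps glucose in the cell as its phosphate. Hk2 (chromosome 6, 82725025 to 82774454, minus strand), the inducible hexokinase, lay between 3.49 and 9.63 TPM in controls (median 5.28) and between 2.64 and 6.28 TPM with PFNA (median 2.98) in the maturation window. The groups overlapped, with 6 of 10 PFNA libraries below every control. Mean Hk2 fell from 5.86 ± 1.72 to 3.77 ± 1.39 TPM (SD, n = 11 and 10), a log2 fold change of -0.53 (SE 0.16, adjusted p = 0.013). During ovulation Hk2 lay between 89.9 and 185 CPM in controls (median 150.5) and between 26.1 and 48.4 CPM with PFNA (median 35.3), and the groups did not overlap. Mean Hk2 fell 4.25-fold there, from 145 ± 27.6 to 34.2 ± 6.62 CPM (SD, n = 12 and 11), a log2 fold change of -2.09 (SE 0.12, adjusted p = 4.6e-14). The constitutive hexokinase, Hk1, did not pass in the maturation window (6.52 against 6.85 TPM, adjusted p = 0.67) and was lower in the ovulation window (-0.65, adjusted p = 0.00014, medians 54.1 and 38.0 CPM). The ratio of Hk2 to Hk1 in a library went, in the ovulation window, from log2 values of 0.83 to 1.81 in controls to -0.58 to 0.21 with PFNA, with no overlap. Gpi1, the isomerase that follows hexokinase, was lower during maturation (-0.36, adjusted p = 0.0052, medians 129.8 and 106 TPM) and higher during ovulation (0.28, adjusted p = 0.0039, medians 290.1 and 334 CPM).

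Phosphofructokinase commits sugar to glycolysis, and its 3 subunit genes moved apart. Pfkm (chromosome 15, 98092589 to 98132451, plus strand), the muscle-type subunit, did not pass in the maturation window, with 12.8 ± 1.48 TPM in controls and 13.2 ± 2.51 TPM with PFNA (SD, n = 11 and 10). Under hCG, Pfkm lay between 1.51 and 5.18 CPM in controls (median 2.81) and between 19.4 and 37.8 CPM with PFNA (median 28.6), so every PFNA library exceeded every control. Mean Pfkm rose 9.92-fold, from 2.86 ± 1.03 to 28.4 ± 5.17 CPM (SD, n = 12 and 11), a log2 fold change of 3.30 (SE 0.17, adjusted p = 7.8e-15), the largest rise among the members. Senp1, a gene on the opposite strand that overlaps Pfkm, went from 49.6 to 35.2 CPM in this window, and whether the counting used strand is not given in the sources used here. Pfkl, the liver-type subunit, was lower in both windows (-0.80 and -0.75, adjusted p = 0.0052 and 0.0014). Its values were 89.3 to 154 TPM in controls and 32.7 to 127 TPM with PFNA during maturation, and 109 to 240.1 CPM in controls and 46.8 to 175 CPM with PFNA during ovulation. The platelet-type subunit, Pfkp, was lower during maturation (-0.80, adjusted p = 0.0063, medians 26.8 and 14.4 TPM) and did not pass during ovulation (0.26, adjusted p = 0.071, medians 238 and 301 CPM). It passed there with DESeq2 and with the oocyte markers as a covariate (adjusted p = 0.042 and 0.026). Pitrm1, which overlaps Pfkp on the opposite strand, was called higher during maturation (means 32.4 and 52.6 TPM) and lower during ovulation (459 and 318 CPM). The log2 ratio of Pfkm to Pfkl went from between -6.59 and -4.45 in ovulation controls to between -2.61 and -0.57 with PFNA.

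Pfkfb3 (chromosome 2, 11471433 to 11554077, minus strand) makes the allosteric activator of phosphofructokinase. During maturation Pfkfb3 lay between 4.09 and 9.20 TPM in controls (median 7.22) and between 1.99 and 7.50 TPM with PFNA (median 3.58). Mean Pfkfb3 fell from 7.13 ± 1.37 to 3.84 ± 1.63 TPM (SD, n = 11 and 10), a log2 fold change of -0.79 (SE 0.16, adjusted p = 0.00064), and 6 of the 10 PFNA libraries were below every control. With the oocyte marker share as a covariate its change was -0.67 and did not pass (adjusted p = 0.0705). Under hCG, Pfkfb3 lay between 63.1 and 105 CPM in controls (median 83.3) and between 40.8 and 56.7 CPM with PFNA (median 50.7), with no overlap. Its mean fell from 83.5 ± 11.4 to 48.9 ± 5.34 CPM (SD, n = 12 and 11), a log2 fold change of -0.77 (SE 0.08, adjusted p = 1.4e-09). The aldolases, which split the sugar into triose phosphates, were lower during maturation and higher during ovulation. Aldoa, the abundant form, changed by -0.58 in the maturation window and by 0.25 in the ovulation window (adjusted p = 0.0081 and 0.0075). In the maturation window it ranged over 1026 to 1392 TPM in controls and 408 to 1266 TPM with PFNA, 8 of 10 PFNA libraries being below every control, and in the ovulation window over 812 to 1291 CPM in controls and 1020.0 to 1442 CPM with PFNA. Aldoc (chromosome 11, 78322968 to 78327781, plus strand), the brain-type form, changed by -0.93 during maturation (adjusted p = 0.0063). During ovulation Aldoc lay between 5.70 and 18.4 CPM in controls (median 8.0) and between 15.6 and 29.2 CPM with PFNA (median 25.1), and 10 of 11 PFNA libraries were above every control. Mean Aldoc rose 2.66-fold, from 9.10 ± 3.34 to 24.2 ± 4.43 CPM (SD, n = 12 and 11), a log2 fold change of 1.41 (SE 0.15, adjusted p = 9.0e-09).

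The enzymes from triose phosphate to pyruvate include Tpi1, the member with the highest mean TPM. Tpi1 (chromosome 6, 124810586 to 124814296, minus strand), which interconverts the triose phosphates, lay between 1879.7 and 2639 TPM in controls (median 2409) and between 397 and 1793 TPM with PFNA (median 1216) in the maturation window. The groups did not overlap, and PFNA replicates 7 and 10 were the lowest at 522 and 397 TPM. Mean Tpi1 fell 1.97-fold, from 2399 ± 231 to 1217 ± 493 TPM (SD, n = 11 and 10), a log2 fold change of -1.12 (SE 0.22, adjusted p = 0.00059). Under hCG, Tpi1 was lower by less (-0.36, adjusted p = 0.026), and the call was lost without control replicate 8 (-0.29, adjusted p = 0.056) and with the oocyte markers as a covariate (-0.34, adjusted p = 0.055). Gapdh (chromosome 6, 125161715 to 125166467, minus strand), often used as a reference transcript, oxidises the triose phosphate. During maturation Gapdh lay between 231 and 324 TPM in controls (median 258) and between 80.6 and 258 TPM with PFNA (median 199). Mean Gapdh fell from 267 ± 33.0 to 190.0 ± 56.4 TPM (SD, n = 11 and 10), a log2 fold change of -0.56 (SE 0.16, adjusted p = 0.011). Under hCG its mean went from 105 ± 19.8 to 102 ± 17.1 CPM (SD, n = 12 and 11) and did not pass (-0.04, adjusted p = 0.70), with values of 79.0 to 141 CPM in controls and 72.2 to 129 CPM with PFNA. Pgk1 and Pkm, the kinases that make ATP in glycolysis, fell by 0.91 and 0.93 on the log2 scale in the maturation window (adjusted p = 0.0060 and 0.00035). Neither passed under hCG (adjusted p = 0.47 and 0.50). Pkm ranged over 556 to 925 TPM in controls and 196 to 627 TPM with PFNA during maturation and 1007 to 1521 CPM in controls and 1058 to 1586 CPM with PFNA during ovulation, so its groups lay apart for 7 of 10 PFNA libraries in the former and overlapped in the latter. For Pgk1 the medians were 445 and 274 TPM, and 606 and 563 CPM.

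Pgam1 (chromosome 19, 41911923 to 41918660, plus strand), the mutase before enolase, was lower in both windows without overlap between the groups. In the maturation window Pgam1 lay between 655 and 974 TPM in controls (median 855) and between 265 and 619.5 TPM with PFNA (median 495). Its log2 fold change was -0.88 there (SE 0.12, adjusted p = 2.8e-05), the smallest p among the members of that window. Under hCG, Pgam1 lay between 471 and 797 CPM in controls (median 614) and between 213 and 419.6 CPM with PFNA (median 257). Mean Pgam1 fell 2.29-fold there, from 616 ± 106 to 269 ± 59.3 CPM (SD, n = 12 and 11), a log2 fold change of -1.20 (SE 0.11, adjusted p = 4.2e-10). Enolase makes phosphoenolpyruvate. Eno1, its ubiquitous form, was lower during maturation (-0.62, adjusted p = 0.042, medians 1438 and 1043 TPM) and higher during ovulation (0.38, adjusted p = 0.0082, medians 648 and 897 CPM). The Eno1 call of the maturation window was lost in 11 of 21 fits that each left out a library (PFNA 7 and 8, controls 1, 2, 3, 5, 6, 7, 9, 10 and 12), with log2 fold changes of -0.63 to -0.50. Eno2, the neuronal form, did not pass during maturation (-0.28, adjusted p = 0.46, medians 6.72 and 5.68 TPM) and was higher during ovulation (0.98, adjusted p = 0.0017, medians 18.8 and 36.4 CPM). Near-identical copies make Eno1, Gapdh, Pgk1, Pgam1 and Ldha uncertain where the counting split reads between loci. The copy Eno1b had a mean of 2263 TPM in maturation controls, more than the 1414 TPM of Eno1, and changed like it by -0.63 and 0.41 in the maturation and ovulation windows (adjusted p = 0.064 and 0.0042). The copies Pgam1-ps2, Pgk1-rs7, Ldha-ps2 and Gapdh-ps15 were listed in the maturation table at control means of 47.8, 33.6, 5.95 and 2.77 TPM.

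Lactate dehydrogenase is a tetramer of the products of Ldha, whose form favours lactate formation, and Ldhb, whose form favours the return to pyruvate. Ldha (chromosome 7, 46841475 to 46855627, plus strand) lay between 670.2 and 988 TPM in controls (median 861) and between 149 and 686 TPM with PFNA (median 458) in the maturation window. The groups overlapped narrowly, 7 of 10 PFNA libraries being below every control and replicates 7 and 10 the lowest at 182 and 149 TPM. Mean Ldha fell from 856 ± 91.4 to 459 ± 201 TPM (SD, n = 11 and 10), a log2 fold change of -1.06 (SE 0.23, adjusted p = 0.0016). During ovulation Ldha lay between 741 and 1372 CPM in controls (median 976) and between 436 and 1113 CPM with PFNA (median 544), and only PFNA replicates 3 and 6 reached the control range. Mean Ldha fell from 988 ± 194 to 629 ± 206 CPM (SD, n = 12 and 11), a log2 fold change of -0.65 (SE 0.14, adjusted p = 0.00024). Ldhb (chromosome 6, 142490249 to 142507957, minus strand) lay between 63.6 and 89.6 TPM in controls (median 68.8) and between 54.3 and 127 TPM with PFNA (median 66.7) in the maturation window, where it did not pass (-0.03, SE 0.11, adjusted p = 0.85) and the group means were both 72.1 TPM. Under hCG, Ldhb lay between 47.4 and 86.7 CPM in controls (median 57.8) and between 82.5 and 144 CPM with PFNA (median 105), and 10 of the 11 PFNA libraries were above every control. Mean Ldhb rose 1.80-fold, from 61.2 ± 11.5 to 110.2 ± 18.6 CPM (SD, n = 12 and 11), a log2 fold change of 0.85 (SE 0.10, adjusted p = 3.7e-08). The ratio of Ldha to Ldhb transcripts had a median of 12.4 in maturation controls and 6.92 with PFNA, with log2 values of 3.28 to 3.88 and 0.23 to 3.66. For ovulation counts the log2 ratio was 3.59 to 4.66 in controls and 1.81 to 2.95 with PFNA, with no overlap.

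Monocarboxylate transporters carry lactate and pyruvate across the plasma membrane. Slc16a3 (chromosome 11, 120948480 to 120960868, plus strand) encodes MCT4, the exporter typical of glycolytic cells, and it had the largest loss of the set in the maturation window. Slc16a3 lay between 189.9 and 348 TPM in controls (median 259) and between 7.74 and 195 TPM with PFNA (median 84.7) there. PFNA replicates 7 and 10 held 7.74 and 7.78 TPM, and 9 of 10 PFNA libraries were below every control. Mean Slc16a3 fell 2.77-fold, from 266 ± 42.3 to 96.1 ± 69.9 TPM (SD, n = 11 and 10), a log2 fold change of -2.05 (SE 0.48, adjusted p = 0.0030). Under hCG, Slc16a3 lay between 125 and 401 CPM in controls (median 225) and between 34.4 and 156 CPM with PFNA (median 96.3), with 9 of 11 PFNA libraries below every control. Mean Slc16a3 fell 2.51-fold there, from 245 ± 88.5 to 97.8 ± 38.4 CPM (SD, n = 12 and 11), a log2 fold change of -1.33 (SE 0.23, adjusted p = 1.7e-05). Slc16a1 (chromosome 3, 104638668 to 104658462, plus strand) encodes MCT1, which works in either direction with the gradient. Slc16a1 lay between 96.8 and 139 TPM in controls (median 122) and between 63.8 and 128 TPM with PFNA (median 104) in the maturation window. Mean Slc16a1 fell from 122 ± 14.2 to 100.3 ± 19.7 TPM (SD, n = 11 and 10), a log2 fold change of -0.29 (SE 0.10, adjusted p = 0.036), a call that was lost with the oocyte markers as a covariate (-0.43, adjusted p = 0.0728). It was also lost without PFNA replicate 7, 8 or 10 or control replicate 1, 2, 3, 5 or 6 (log2 fold change -0.29 to -0.23). During ovulation Slc16a1 lay between 100.3 and 137 CPM in controls (median 117) and between 159.9 and 238 CPM with PFNA (median 192), with every PFNA library above every control. Mean Slc16a1 rose 1.61-fold, from 118 ± 11.1 to 191 ± 22.4 CPM (SD, n = 12 and 11), a log2 fold change of 0.69 (SE 0.07, adjusted p = 7.2e-10). In each library the log2 ratio of Slc16a3 to Slc16a1 lay between 0.84 and 1.43 in maturation controls and between -3.30 and 0.91 with PFNA. In the ovulation window it lay between 0.16 and 1.67 in controls and between -2.37 and -0.08 with PFNA, without overlap. Other pairs examined there overlapped between groups, namely Pfkp to Pfkl, Aldoc to Aldoa, Eno2 to Eno1, Slc2a3 to Slc2a1, Pdk1 to Pdk2 and Pdk3 to Pdk2. Every PFNA library lay beyond every control for 26% of single genes in that window, and no such share was computed for ratios of other genes.

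**Figure D3:**
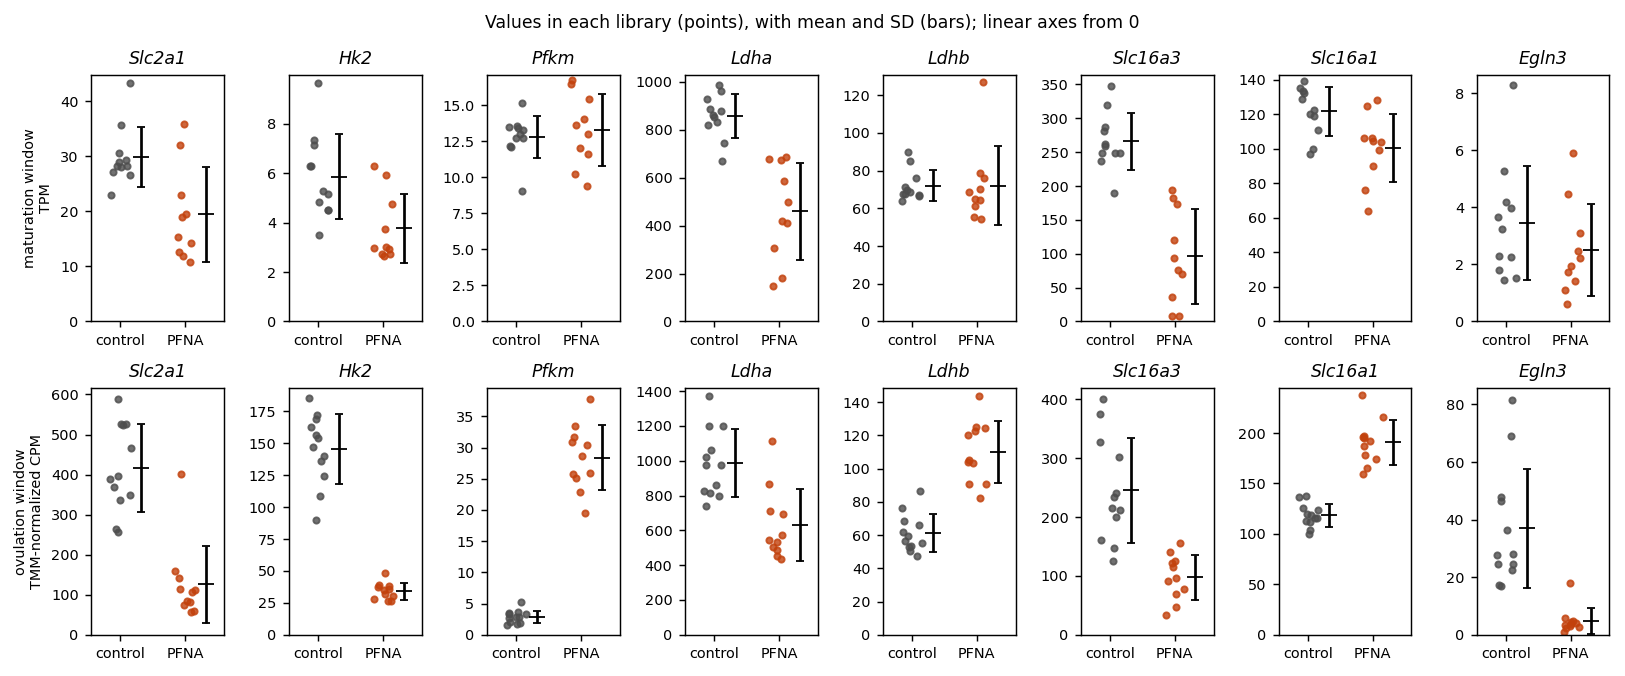
Points are single libraries, in TPM for the maturation window (top) and TMM-normalised CPM for the ovulation window (bottom), with the mean and SD beside them and axes that start at 0. Hk2, Pfkm and Slc16a1 do not overlap between groups in the ovulation window, Ldhb is higher there and did not pass in the maturation window, and Slc16a3 is lower with PFNA in both.

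**Figure D4:**
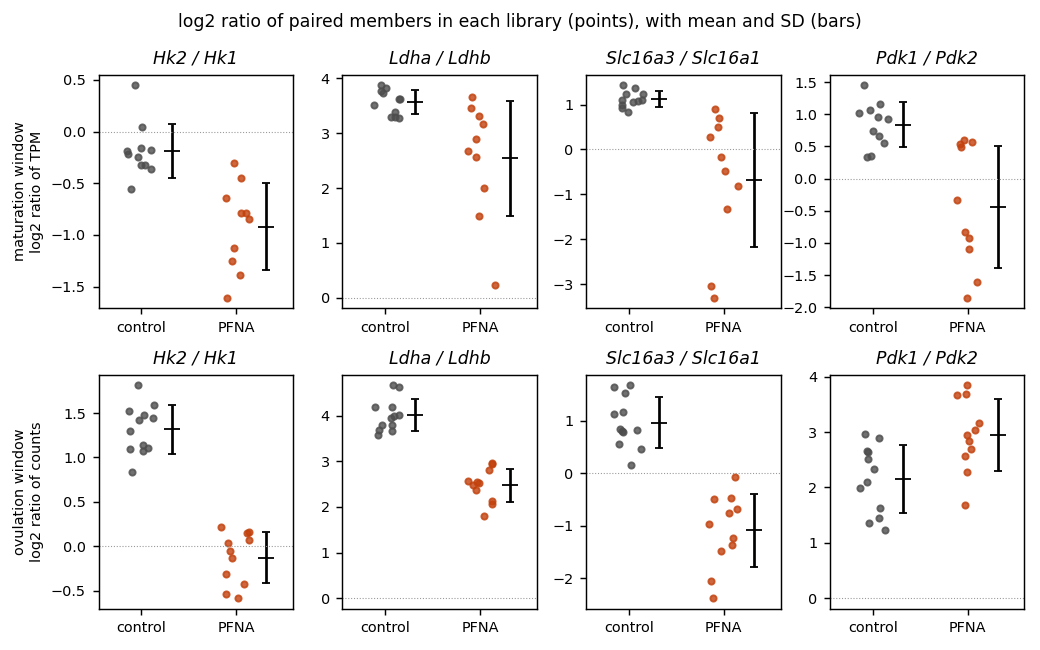
Points are log2 ratios of paired transcripts in single libraries, from TPM (top) and from counts (bottom, where only the change between groups is read), with mean and SD. Hk2 to Hk1, Ldha to Ldhb and Slc16a3 to Slc16a1 do not overlap between groups in the ovulation window. Pdk1 to Pdk2 moves down in the maturation window and up, with overlap, in the ovulation window. Pairs not drawn include others that overlap in the ovulation window.

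At the gate of the mitochondrion 3 of 7 genes were higher and 1 lower with PFNA in each window, where 13.3% and 16.1% of all genes were higher and lower during maturation and 38% and 35.2% during ovulation, so the ovulation count is near the background. Pdha1 (chromosome X, 160122209 to 160138413, minus strand) and Pdhb encode the subunits of pyruvate dehydrogenase proper, Dlat its acetyltransferase partner and Dld the dehydrogenase that closes the cycle. In the maturation window Pdha1 lay between 16.2 and 28.1 TPM in controls (median 21.2) and between 20.6 and 36.3 TPM with PFNA (median 25.3). Mean Pdha1 rose from 21.1 ± 3.69 to 26.0 ± 4.64 TPM (SD, n = 11 and 10), a log2 fold change of 0.29 (SE 0.10, adjusted p = 0.036). This call was lost in 9 of 21 fits that each left out a library (PFNA 3, 4, 5, 7 and 10, controls 1, 3, 6 and 7), with log2 fold changes of 0.23 to 0.28, and with the oocyte markers as a covariate (0.42, adjusted p = 0.073). During ovulation Pdha1 lay between 38.5 and 50.2 CPM in controls (median 46.5) and between 32.1 and 48.0 CPM with PFNA (median 36.6). Its mean fell from 45.8 ± 3.46 to 38.4 ± 5.58 CPM (SD, n = 12 and 11), a log2 fold change of -0.25 (SE 0.07, adjusted p = 0.0026). Map3k15, which overlaps Pdha1 on the opposite strand, went from 1.57 to 9.57 CPM in that window. Pdhb did not pass during maturation (-0.09, adjusted p = 0.25, medians 123 and 117 TPM) and was higher during ovulation (0.31, adjusted p = 8.6e-05, medians 74.4 and 94.0 CPM). Dlat was higher in both windows, by 0.16 and 0.12 (adjusted p = 0.027 and 0.035). Its range was 18.6 to 24.2 TPM in controls and 20.5 to 28.6 TPM with PFNA during maturation, with 8 of 10 PFNA libraries above every control, and 51.3 to 63.8 CPM in controls and 55.8 to 70.1 CPM with PFNA during ovulation. Its maturation call was lost without PFNA replicate 6 (0.15, adjusted p = 0.052) and with the oocyte markers as a covariate (0.22, adjusted p = 0.0796). The ovulation call of Dlat was lost in 10 of 23 fits that each left out a library (PFNA 3, 5, 8 and 10, controls 2, 4, 5, 7, 8 and 9), with 0.10 to 0.12. Dld passed in neither window (medians 55.7 and 53.0 TPM, and 144 and 124 CPM, adjusted p = 0.40 and 0.063), although it was called lower in the ovulation window without a filter on low counts and with limma (adjusted p = 0.023 and 0.0447).

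Pyruvate dehydrogenase kinases switch the complex off, and Pdk1 (chromosome 2, 71873224 to 71903858, plus strand) is a kinase gene that HIF-1 is known to induce. Pdk1 lay between 17.7 and 48.9 TPM in controls (median 32.8) and between 7.02 and 35.4 TPM with PFNA (median 16.5) in the maturation window. Mean Pdk1 fell from 30.7 ± 8.76 to 18.9 ± 9.46 TPM (SD, n = 11 and 10), a log2 fold change of -0.77 (SE 0.24, adjusted p = 0.020), and did not pass with the oocyte markers as a covariate (-0.73, adjusted p = 0.21). Under hCG, Pdk1 lay between 8.58 and 29.9 CPM in controls (median 16.4) and between 15.3 and 49.5 CPM with PFNA (median 22.9). The groups overlapped, 3 of 11 PFNA libraries being above every control. Mean Pdk1 rose from 18 ± 7.56 to 26.8 ± 11 CPM (SD, n = 12 and 11), a log2 fold change of 0.58 (SE 0.23, adjusted p = 0.028). That call was lost without PFNA replicate 3, 6 or 9 (0.45 to 0.51, adjusted p = 0.054 to 0.072) and with the oocyte markers as a covariate (0.52, adjusted p = 0.066). Pdk2, the widely expressed kinase, was higher in the maturation window (0.44, SE 0.09, adjusted p = 0.00068), with 7 of 10 PFNA libraries above every control, though not with the oocyte markers as a covariate (0.37, adjusted p = 0.075). It did not pass in the ovulation window (adjusted p = 0.26). Pdk3 passed in neither (adjusted p = 0.10 and 0.20, medians 4.93 and 4.60 TPM, and 26.8 and 22.1 CPM). The log2 ratio of Pdk1 to Pdk2 lay between 0.33 and 1.45 in maturation controls and between -1.85 and 0.60 with PFNA, and between 1.24 and 2.96 and between 1.69 and 3.84 in the ovulation window.

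Of the 6 genes of the hypoxia response, 3 were lower and none was higher during maturation, and 3 were higher and 3 lower during ovulation. Among all genes tested 16.1% were lower and 13.3% higher during maturation, and 38% were higher and 35.2% lower during ovulation. The ovulation split is near that background. Hif1a (chromosome 12, 73901375 to 73947530, plus strand) encodes the oxygen-regulated subunit of HIF-1. In the maturation window Hif1a lay between 97.2 and 148 TPM in controls (median 135) and between 81.8 and 143 TPM with PFNA (median 94.9). Mean Hif1a fell from 126 ± 17.9 to 102 ± 21.6 TPM (SD, n = 11 and 10), a log2 fold change of -0.32 (SE 0.11, adjusted p = 0.028). The call was lost without PFNA replicate 7, 8, 9 or 10 (-0.29, adjusted p = 0.052 to 0.054) and with the oocyte markers as a covariate (-0.21, adjusted p = 0.39). During ovulation Hif1a lay between 1047 and 1884 CPM in controls (median 1234) and between 1093 and 2402 CPM with PFNA (median 1688), with replicate 6 the highest. Mean Hif1a rose from 1265 ± 221 to 1678 ± 328 CPM (SD, n = 12 and 11), a log2 fold change of 0.41 (SE 0.11, adjusted p = 0.0012). Egln1 encodes the main HIF prolyl hydroxylase and was lower in both windows (-0.50 and -0.68, adjusted p = 0.011 and 0.00091). Its ovulation values were 77.3 to 134 CPM in controls and 40.8 to 149 CPM with PFNA, and PFNA replicate 6, the highest of all libraries, was the exception in a group otherwise below every control. With the oocyte markers as a covariate its maturation change was -0.46 (adjusted p = 0.18). Egln3 (chromosome 12, 54178981 to 54203860, minus strand), a hydroxylase that HIF itself induces, lay between 1.47 and 8.28 TPM in controls (median 3.26) and between 0.598 and 5.92 TPM with PFNA (median 2.09) during maturation and did not pass (-0.36, SE 0.26, adjusted p = 0.31). Under hCG, Egln3 lay between 17.1 and 81.7 CPM in controls (median 27.9) and between 1.07 and 18.1 CPM with PFNA (median 3.71), where only PFNA replicate 6 reached the control range. Mean Egln3 fell 7.62-fold, from 36.9 ± 20.7 to 4.85 ± 4.59 CPM (SD, n = 12 and 11), a log2 fold change of -2.93 (SE 0.38, adjusted p = 2.2e-07), the largest loss among the members.

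Bnip3 (chromosome 7, 138890836 to 138909519, minus strand), a mitophagy receptor and HIF target, lay between 105 and 190.5 TPM in controls (median 157) and between 33.6 and 172 TPM with PFNA (median 86.0) in the maturation window. Mean Bnip3 fell from 152 ± 26.8 to 85.2 ± 41.3 TPM (SD, n = 11 and 10), a log2 fold change of -0.97 (SE 0.23, adjusted p = 0.0029), and 8 of the 10 PFNA libraries were below every control. During ovulation Bnip3 lay between 38.7 and 154 CPM in controls (median 73.8) and between 64.2 and 431 CPM with PFNA (median 110.1), with 2 of 11 PFNA libraries above every control. Mean Bnip3 rose from 81.6 ± 37.1 to 134 ± 104 CPM (SD, n = 12 and 11), a log2 fold change of 0.72 (SE 0.30, adjusted p = 0.033). PFNA replicate 6 held 431 CPM, and without it the log2 fold change was 0.36 and did not pass (adjusted p = 0.16). The call was also lost without PFNA replicate 3 or control replicate 6 or 12 (0.65 to 0.67) and with the oocyte markers as a covariate (0.70, adjusted p = 0.058). Ankrd37 (chromosome 8, 45996902 to 46005707, minus strand), a HIF target of little-known function, did not pass in the maturation window (-0.54, adjusted p = 0.059), where PFNA replicate 10 listed it at 0, but passed without PFNA replicates 1 and 2 (-0.59, adjusted p = 0.046). Under hCG, Ankrd37 was scarce and lay between 0.492 and 4.92 CPM in controls (median 1.92) and between 0.146 and 1.51 CPM with PFNA (median 0.64). Mean Ankrd37 fell from 2.02 ± 1.23 to 0.707 ± 0.413 CPM (SD, n = 12 and 11), a log2 fold change of -1.51 (SE 0.37, adjusted p = 0.00072). Ufsp2, which overlaps it on the opposite strand, went from 12.1 to 27.2 CPM. P4ha1, a collagen prolyl hydroxylase subunit, did not pass during maturation (-0.33, adjusted p = 0.089; -0.64 and 0.043 with the oocyte markers as a covariate). It was higher during ovulation (0.33, adjusted p = 0.023, medians 373 and 473 CPM), but not without PFNA replicate 6 (0.24, adjusted p = 0.059) or with limma (0.28, adjusted p = 0.052). PFNA replicate 6 of the ovulation window was the highest PFNA library for Slc2a1, Ldha, Hif1a, Egln1, Egln3, Bnip3 and P4ha1. It was also the highest for many other members, among them Slc2a3, Pfkl, Tpi1, Pgk1, Pgam1, Eno1, Ldhb, Slc16a1 and Pdk1. Without this library 11 members were called higher and 16 lower, and 10029 of all genes were called, against 9837 with it.

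Losses of the maturation window were uneven across PFNA libraries. The mean over the 21 members called lower of the log2 value minus the control mean, a description that the calls themselves set below 0, was -1.80 in PFNA replicate 10, -1.60 in replicate 7 and -1.12 in replicate 8. It was -0.74 to -0.34 in replicates 1, 2, 3, 4, 6 and 9 and -0.08 in replicate 5, against -0.42 to 0.23 in controls. Control replicate 11 was the lowest control, and replicate 12 came next at -0.10. Control replicate 11 also held the lowest control value of members such as Tpi1, Pgam1, Ldha and Slc16a3. It therefore set how many PFNA libraries lay below every control for them. PFNA replicate 10 combined the lowest Slc2a1, Tpi1, Gapdh, Pgam1 and Ldha of the group with its highest Ldhb, 127 TPM, and its highest oocyte marker sum. Of 10 granulosa marker genes, Fshr, Cyp19a1, Inha, Amh, Nr5a2 and Hsd17b1 were also lower with PFNA in this window and none was higher. Inhba, Foxl2, Fst and Gja1 were not called, and 16.1% of all genes tested were lower. The part of these marker changes in the result was not tested. In the ovulation window 7 of those 10 markers were higher and Inha and Inhba lower, where 38% of all genes were higher and 35.2% lower.

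Because each window had its own controls and its own table, the PFNA effect was compared between them as a difference of log2 fold changes, in which window and table cannot be told apart. Of 34 members 18 had a higher effect in the ovulation window and 6 a lower one (limma within each table, adjusted p under 0.05), where 67.7% of all 11215 genes tested differed, 32% higher and 35.6% lower. The largest differences upward were those of Pfkm, 2.92 (SE 0.17, adjusted p = 4.9e-19), and Aldoc, 2.29 (SE 0.28, adjusted p = 1.0e-08). Bnip3 and Pdk1, lower during maturation and higher during ovulation, followed with 1.58 (SE 0.35, adjusted p = 0.00014) and 1.34 (SE 0.33, adjusted p = 0.00038). The downward differences belonged to Egln3, -2.41 (SE 0.39, adjusted p = 7.7e-07), Hk2, -1.52 (SE 0.19, adjusted p = 6.8e-09), Slc2a1, -1.22 (SE 0.30, adjusted p = 0.00040), Hk1, Pdk2 and Pdha1, the last 3 with -0.69, -0.60 and -0.54. Ldhb and Slc16a1 differed by 0.87 (SE 0.15, adjusted p = 1.7e-06) and 0.97 (SE 0.12, adjusted p = 1.1e-08). For their partners Ldha and Slc16a3 the difference did not pass, with 0.37 (SE 0.27, adjusted p = 0.22) and 0.70 (SE 0.54, adjusted p = 0.25). Pfkl and Pfkfb3, lower in both windows, had differences of -0.01 (SE 0.28, adjusted p = 0.99) and 0.04 (SE 0.17, adjusted p = 0.86).

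By their calls in both windows the 34 members tested in both are set beside the 11215 genes tested in both. Called lower in both were 9 members (6.01% of all genes), Slc2a1, Hk2, Pfkl, Pfkfb3, Tpi1, Pgam1, Ldha, Slc16a3 and Egln1. Lower during maturation and higher during ovulation were 8 (7.64%), Gpi1, Aldoa, Aldoc, Eno1, Slc16a1, Pdk1, Hif1a and Bnip3. Pfkp, Gapdh, Pgk1 and Pkm were called lower during maturation alone (4.23%), and Pfkm, Eno2, Ldhb, Pdhb and P4ha1 were called higher in the ovulation window alone (22.2%). Hk1, Egln3 and Ankrd37 were called lower in that window alone (26.9%), and Dld and Pdk3 in neither (18%). Dlat was the member called higher in both (6.06%), Pdha1 was higher and then lower (5.11%), and Pdk2 was called, as higher, in the maturation window alone (3.84%).

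Other genes of the same routes were read from 6 lists, whose median log2 fold changes stand beside those of all genes tested, 0.02 in the maturation window and 0.04 in the ovulation window. Their counts read against 13.3% of all genes higher and 16.1% lower in the maturation window, and 38% and 35.2% in the ovulation window. Of 16 further glycolysis and transport genes tested in the maturation window, 4 were lower and none was higher (median -0.09), with Pgm1, Bpgm and Bsg at log2 fold changes of -0.73, -0.54 and -0.25. Bsg is the chaperone that brings the lactate transporters to the membrane. In the ovulation window 9 of 20 were higher and 7 lower (median 0.34). Pfkfb4, a relative of Pfkfb3, fell from 20.1 ± 3.84 to 5.15 ± 1.55 CPM (SD, n = 12 and 11), while Eno3 and Ldhd rose by 2.15 and 2.26 (adjusted p = 1.9e-11 and 4.4e-09). Among 14 other genes of pyruvate entry and use, 6 were higher and none lower during maturation (median 0.21). Pdk4, the fasting-induced pyruvate dehydrogenase kinase, rose from 9.54 ± 1.91 to 22 ± 11.4 TPM (SD, n = 11 and 10), and the malic enzymes Me1 and Me2 rose by 0.53 and 1.05. During ovulation 6 of 14 were higher and 7 lower (median -0.31), Pdk4 going from 54.2 ± 17.2 to 307 ± 65.2 CPM (SD, n = 12 and 11) and Pck2 from 45.1 ± 7.30 to 249.3 ± 48.1 CPM (SD, n = 12 and 11). Pdp2, a phosphatase that reactivates pyruvate dehydrogenase, fell by 1.99 on the log2 scale (adjusted p = 1.0e-12). Of 32 other hypoxia-related genes, 3 were higher and 10 lower in the maturation window (median -0.11), led by P4hb (-0.38), Bhlhe40 (0.55) and Ak4 (-1.13). Of 33 in the ovulation window, 9 were higher and 15 lower (median -0.33), led by Hif1an (-1.06), an inhibitor of HIF, Lox (-2.81), a collagen crosslinking enzyme, and Tfrc (-1.65), the transferrin receptor.

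Of the neighbouring routes, glucose can leave glycolysis for the pentose phosphate pathway or for storage as glycogen, and pyruvate ends in the tricarboxylic acid cycle. The pentose phosphate pathway had 1 of 7 genes higher and 3 lower during maturation (median -0.31), with Pgls, Tkt and Taldo1 at -0.36, -0.33 and -0.53, and in the ovulation window (median -0.21) 1 higher (Pgls, 0.70) and 4 lower (Pgd, -0.57, and Taldo1, -0.35, among them). Of 19 tricarboxylic acid cycle genes none was higher and 6 were lower during maturation (median -0.10), Idh3a, Mdh1 and Mdh2 by -0.37, -0.25 and -0.33. During ovulation 8 of the 19 were higher and 7 lower (median 0.08), with Idh3b, Idh3g and Sdha at 0.55, 0.70 and 0.69. Glycogen genes split 1 higher (Phkb, 0.28) and 2 lower (Gys1, -0.50, and Phka1, -0.25) of 11 during maturation (median -0.06). In the ovulation window 7 of 13 were higher and 3 lower (median 0.19), and Pygm, the muscle-type glycogen phosphorylase, rose from 2.23 ± 0.767 to 15.7 ± 3.33 CPM (SD, n = 12 and 11), with its kinase subunits Phka2 and Phkb at 1.22 and 1.33.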

How the data were processed

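RNA of mouse ovarian follicles was sequenced after poly-A selection from small inputs, and genes were read in 2 tables, 1 for each window. For the maturation window the authors deposited values that are TPM (every library has the same sum), although the table is titled as counts. For the ovulation window the authors deposited estimated counts per gene, of which 14.9% of values were not whole (tolerance 0.001). They were rounded to whole numbers here. The submitters' processing notes name Partek, Bowtie2 and HISAT2. Versions, genome build, annotation and strand setting are not given in the sources used here, and positions printed are those of the maturation table, whose gene starts match GENCODE M21 (GRCm38) for 99.4% of matched symbols. A column whose name differs by a letter was taken as maturation control replicate 6.

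Maturation: limma 3.58.1 (trend, robust) on log2(TPM + 1), keeping genes whose mean over all libraries reached 1 TPM. On this scale the change of low genes is understated. Ovulation: edgeR 4.0.16 quasi-likelihood test with TMM and filterByExpr, in R 4.3.3. The difference between windows was taken from limma fits within each table (log2(CPM + 1) for ovulation), with Satterthwaite degrees of freedom. All p-values were adjusted by Benjamini-Hochberg over all genes tested, with a threshold of 0.05. SE in edgeR results is the log2 fold change over the root of F. The fits were tested on simulated data. No libraries held identical values. Ovulation replicates differed by more than sampling noise (lowest chi-square per degree of freedom 7.54), which could not be checked in TPM.

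The members and lists were chosen with earlier results of these data known. Given in detail in each window were members called with a change of at least 2-fold, and, whatever their result, Slc2a1, Hk2, Pfkfb3, Gapdh, Ldha, Ldhb, Slc16a1, Slc16a3, Pdha1, Pdk1, Hif1a, Egln3 and Bnip3. Of each other pathway list, the 3 called genes with the smallest p were named. Genes of opposite-strand overlaps and copies were named after their values were seen. Alternatives were other scalings, filters and pseudocounts, DESeq2 1.42.0, the oocyte marker share as a covariate, the replicate number as a block, and leaving out libraries.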

Additional observations from a re-analysis of the deposited data

Results flagged for a closer look

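In the maturation window 5 of 35 members had a PFNA library far above the other 9 by Dixon's test on TPM. For independent groups of normally spread values chance would give about 1 in 20, or 1.75 of 35. The members were read in the same libraries, and all 5 cases came from PFNA replicates 5 and 10. The groups are therefore not independent, and whether 5 exceeds chance was not tested. PFNA replicate 5 stood apart for Slc2a3 (1.42 TPM, the next library 0.774), Pfkp (42.4 TPM, next 22.5) and Eno2 (17.9 TPM, next 10.5). PFNA replicate 10 stood apart for Ldhb (127 TPM, next 78.6) and Pdha1 (36.3 TPM, next 29).

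The PFNA effect differed between the windows for 24 of 34 members (limma, adjusted p under 0.05), near the 67.7% of all genes that differed, so the count is not particular to these genes. Each is given here as the log2 fold change of the ovulation window minus that of the maturation window. It was higher in the ovulation window for Pfkm (2.92), Aldoc (2.29), Bnip3 (1.58), Pdk1 (1.34), Eno2 (1.13), Pfkp (1.04), Pkm (0.99), Eno1 (0.99), Slc16a1 (0.97), Ldhb (0.87), Aldoa (0.83) and Pgk1 (0.81). Smaller differences in that direction were those of Tpi1 (0.77), Hif1a (0.72), Gpi1 (0.64), P4ha1 (0.61), Gapdh (0.51) and Pdhb (0.40). It was lower in the ovulation window for Egln3 (-2.41), Hk2 (-1.52), Slc2a1 (-1.22), Hk1 (-0.69), Pdk2 (-0.60) and Pdha1 (-0.54). The windows also differ in table and unit, which cannot be told apart from the window here.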

How the results depend on the processing

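With the oocyte marker share as a covariate the maturation window had 17 members lower, 0 higher and 1102 genes called, against 21, 3 and 4030. The replicate numbers did not pair the samples (correlations of same-numbered deviations of -0.14 to 0.17 over 9 pairs and -0.19 to 0.07 over 11), and with the replicate number as a block the members higher were 1 and lower 20 in the maturation window and 10 and 14 in the ovulation window. Leaving out each library in turn gave 2 to 3 members higher, 18 to 23 lower and 3586 to 4588 genes called during maturation, and 11 to 15, 13 to 16 and 9654 to 10029 during ovulation. Without maturation control replicate 6 there were 2 higher and 19 lower. Changes of sign were all of members not called. In the maturation window these were, with the covariate, Dld 0.014, Hk1 -0.0065, Ldhb 0.23, Pdhb 0.018 and Pfkm -0.10, and with the block Hk1 -0.00018 and Pfkm -0.0035. In the ovulation window Gapdh was 0.017 with the covariate. The difference between windows became 0.0084 for Dlat, 0.031 for Pdk3 and 0.0495 for Pfkl with median-ratio size factors, 0.0050 for Pdk3 with a pseudocount of 0.1 and 0.0912 for Pfkl without maturation PFNA replicates 1 and 2. The difference was called higher in ovulation for 18 members and lower for 6 under each of those 3 alternatives. Apart from single libraries left out, 535 of the members' results kept direction and call, 26 lost the call, 6 gained it and 13 changed sign. Maturation calls were lost for Eno1, Pdha1 and Slc16a1 without a filter on low values, for Eno1 and Slc16a1 with TMM-scaled totals (adjusted p = 0.0503 and 0.052), and for Dlat, Gapdh (-0.54, adjusted p = 0.055) and Pdha1 with the block. Ovulation calls were lost for Bnip3 and Dlat without a filter (adjusted p = 0.056 and 0.157), and for Bnip3 (0.49, adjusted p = 0.17), Dlat, P4ha1 and Pdk1 with the block. Those lost with the covariate, with limma or without a library stand beside each gene. The cause of these changes was not tested. Without depth, counting error in TPM cannot be given.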
